A study of Arabidopsis thaliana with 14 samples.

Results

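The embryo proper and the peripheral endosperm of Arabidopsis thaliana seeds were compared at the bending-cotyledon stage. All 4 arrays that the labels describe as one of these compartments were taken, 2 of the embryo proper and 2 of the peripheral endosperm, out of 14 Affymetrix ATH1 arrays in 7 groups. All 22746 probe sets that are not array controls entered, of 22810 on the array. Both groups were wild-type plants of accession Ws-0, 38 to 46 days old, grown in continuous light, with no transgene or treatment named. Seeds held embryos with bent cotyledons 100 to 140 µm long. Each compartment was cut by laser from sections of fixed, paraffin-embedded seeds, so every sample pools tissue from several sections. The labels call the 2 samples of each group biological replicates. Between 5 and 6 ng of RNA from each was amplified before hybridisation. The other 5 groups (micropylar and chalazal endosperm, chalazal and general seed coat, and sections of whole seeds, 2 arrays each) shared the estimate of the spread and are quoted where they bear on the comparison. The comparison asks which transcripts are more abundant in the embryo and which in the endosperm that surrounds it.

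The embryo and the endosperm are the products of double fertilisation: the embryo becomes the next plant, and the endosperm passes on nutrients from the mother plant. In Arabidopsis the peripheral endosperm first divides as nuclei in a shared cytoplasm, then forms cell walls, and is largely consumed as the embryo grows. At the bending-cotyledon stage the embryo is forming its epidermis and cuticle and starting to fill with storage protein and oil.

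The values are linear signal intensities, and each probe set has its own brightness, so levels are compared only between arrays and never between probe sets. Differences are given as log2(intensity + 32) of the embryo minus that of the peripheral endosperm, with a positive sign for a higher level in the embryo. The constant of 32 makes the difference of dim probe sets smaller than the ratio of their intensities. A probe set was called when limma's Benjamini-Hochberg adjusted p was under 0.05 and the difference was at least 1, a doubling on that scale. There were 2 arrays a group, which limits the precision, and the p-values measure the spread between such pairs of arrays over all 7 groups. In samples of many cells, fewer cells of a type and less RNA per cell cannot be told apart.

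Of 14765 probe sets bright enough to be tested, 1905 (12.9%) were higher in the embryo and 1385 (9.38%) were higher in the peripheral endosperm, so 22.3% differed. Those higher in the embryo carried the names of 961 single genes, and those higher in the peripheral endosperm of 721, of 8070 genes tested. The largest differences lay on the endosperm side: 73 probe sets were higher there by a log2 difference of at least 5, against 31 in the embryo. Of all tested probe sets, 5417 (36.7%) lay within 0.5 of equality. The split of calls depended on the scaling: 57.9% of the calls were higher in the embryo with the intensities as deposited, and 42.4% when each array was scaled to a common median, which moved the median difference of all probe sets by -0.24 from 0.14. The counts of list members below stand beside this background of 12.9% and 9.38% of probe sets, and no test of a list was made.

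**Figure D1:**
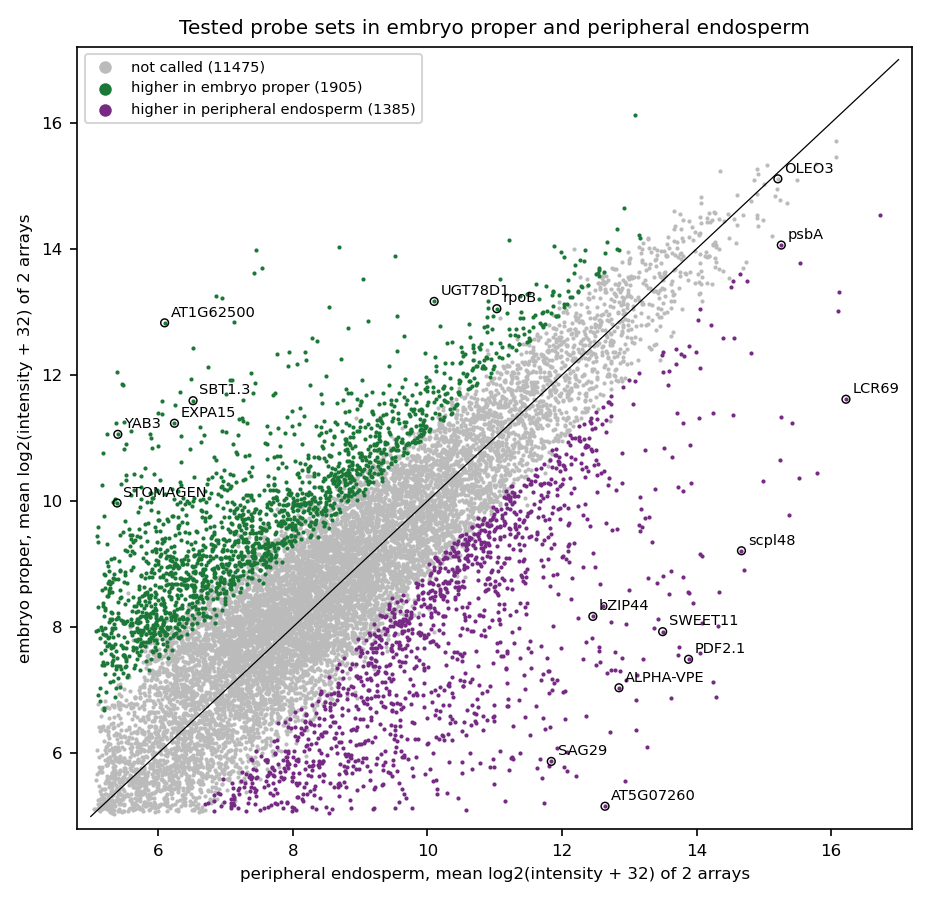
Each point is a tested probe set, with its mean log2(intensity + 32) over the 2 peripheral endosperm arrays on the horizontal axis and over the 2 embryo proper arrays on the vertical axis; the line marks equality and circled points are genes described in the text. The 1905 green points are higher in the embryo, the 1385 purple points are higher in the peripheral endosperm, and the purple points reach farther from the line.

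The 2 embryo arrays correlated at r = 0.967 over the tested probe sets and the 2 peripheral endosperm arrays at r = 0.867, against 0.698 to 0.737 between the groups. These are descriptions across probe sets of the same arrays. Peripheral endosperm replicate 2 stood nearer to the embryo arrays than replicate 1 did, with a mean r of 0.735 against 0.701. It also correlated more closely with micropylar endosperm replicate 1 (r = 0.883) than with its own replicate. Array medians were 142 and 140 for the embryo and 99.0 and 133 for the peripheral endosperm, replicates 1 and 2. The ratio of the 3' to the 5' control probe set of GAPDH, a sign of RNA length, was 3.26 and 3.65 in the embryo and 2.90 and 3.89 in the peripheral endosperm. That of Actin was 20.9 and 15.96 in the embryo and 10.5 and 10.2 in the peripheral endosperm, higher on both embryo arrays, and that of ubiquitin was 6.15 and 9.02 against 6.58 and 6.82. The part of RNA length in the differences was not tested.

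The labels were set against marker genes. Of 17 embryo markers listed, 5 had a probe set of a single gene, and all 5 were tested and higher in the embryo: YAB3, YAB5, STOMAGEN, PAP85 and AT5G01075. Of 17 endosperm markers listed, 5 had such a probe set and 2 were tested. Both, SWEET11 and AT1G50650, were higher in the peripheral endosperm. Each of these called markers also belongs to a list described below, where its call is counted again. Since the lists were chosen with earlier results of these data known, the markers are no independent check of the labels. AGL62, a MADS-box gene that delays endosperm cell wall formation, was too dim to be tested, with 23.9 and 29.8 on the embryo arrays and 1.78 and 4.96 on the peripheral endosperm arrays. IKU2, a receptor kinase gene of endosperm growth, was also dim on all 4 arrays. Seed coat markers are described with the other compartments at the end.

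Genes that pattern the embryo's organs were higher in the embryo for 4 of 5 tested, with a median difference of 3.34, against 0.14 over all probe sets. YAB3, a YABBY transcription factor of the lower side of lateral organs, read 2075 and 2128 on the embryo arrays and 13.6 and 7.25 on the peripheral endosperm arrays (log2 difference 5.66, SE 0.50, adjusted p = 3.58e-07). STOMAGEN, a secreted peptide that promotes stomata, read 856 and 1101 in the embryo and 1.79 and 20.1 in the peripheral endosperm (difference 4.58, SE 0.52, adjusted p = 8.13e-06). Both genes were near the bottom of the scale on both endosperm arrays and far above it on both embryo arrays. SPCH, the bHLH factor that starts the stomatal lineage, read 424 and 305 in the embryo and 1.69 and 12.8 in the peripheral endosperm (difference 3.34, adjusted p = 1.00e-04). YAB5, another YABBY factor, read 282 and 209 in the embryo against 24.6 and 2.97 in the endosperm (difference 2.63, adjusted p = 0.00328). In each of these 4 genes both embryo arrays lay above both endosperm arrays, as they did in 35.6% of all tested probe sets. The opposite order held in 26.7%. Among called probe sets the groups did not overlap in 1904 of the 1905 higher in the embryo and in all 1385 higher in the peripheral endosperm. A lack of overlap in a called gene, here and below, therefore adds little to its call. PHV, a homeodomain leucine zipper factor of the upper side of organs, was not called, with 541 and 562 in the embryo and 857 and 787 in the peripheral endosperm (difference -0.55, 95% interval -1.66 to 0.56, adjusted p = 0.49). The count of 4 was the same under every alternative run for the lists, with any single array of the 2 groups left out among them.

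Signals between the compartments shape the embryo's cuticle, the waxy layer that seals its surface. The list for this pathway had 4 tested genes. In the embryo, 3 were higher. AT5G01075 read 4125 and 3551 on the embryo arrays and 154 and 69.2 on the peripheral endosperm arrays (difference 4.81, SE 0.82, adjusted p = 4.51e-04). GSO1, a receptor kinase needed for a continuous cuticle, read 919.7 and 821 in the embryo against 145 and 296 in the endosperm (difference 1.91, adjusted p = 0.0153). CR4, the receptor kinase ACR4 of epidermal cells, read 1389 and 1092 in the embryo against 119.5 and 342 in the endosperm (difference 2.41, adjusted p = 0.00409). In all 3 the embryo arrays lay above the endosperm arrays. The remaining gene, AT1G50650, showed the opposite: it read 305 and 389 in the embryo and 13772 and 16319.6 in the peripheral endosperm, a difference of -5.32 (SE 0.68, adjusted p = 2.86e-05). Its mean in the peripheral endosperm was 43.3 times that in the embryo, with no overlap. Without embryo replicate 1 the list had 1 gene called on the embryo side, with CR4 and GSO1 lost. GSO1 was lost also with 1 added to the intensities and without embryo replicate 2 or peripheral endosperm replicate 1.

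**Figure D2:**
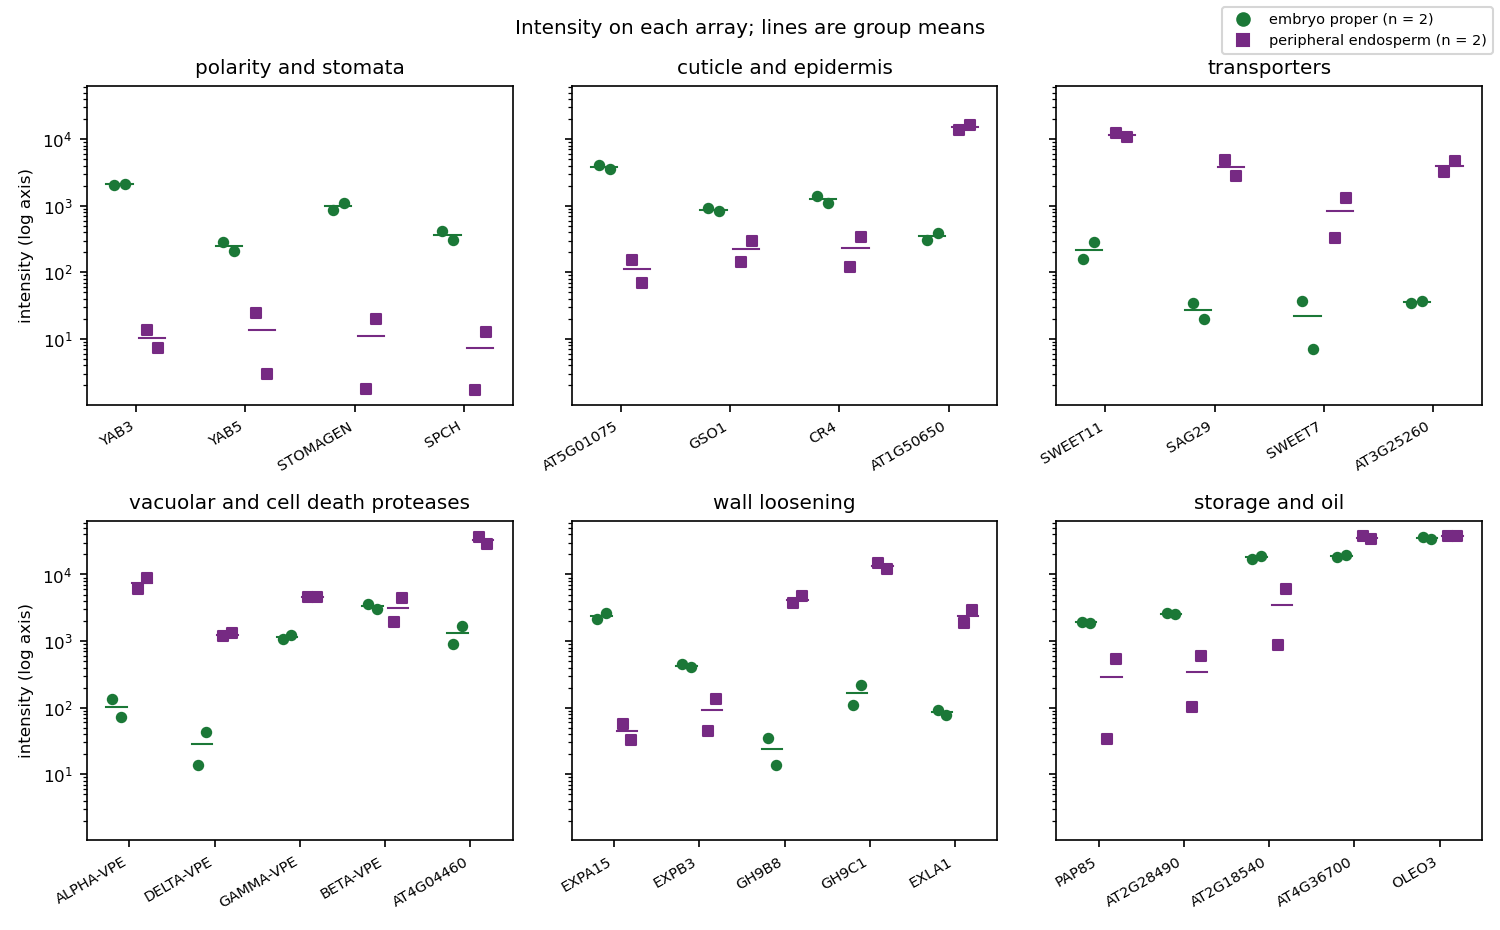
Intensity on a log axis on each array of the embryo proper (green circles, n = 2) and the peripheral endosperm (purple squares, n = 2) for genes of 6 groups, with lines at the group means. YAB3, STOMAGEN and EXPA15 lie high in the embryo, SWEET11, ALPHA-VPE and GH9C1 lie high in the peripheral endosperm, and OLEO3 and BETA-VPE overlap or nearly so.

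Storage proteins differed by gene, and the 2 peripheral endosperm arrays differed from each other. Of 4 tested, 3 were higher in the embryo. PAP85, a vicilin-like storage protein, read 1924 and 1892 on the embryo arrays, 33.7 on peripheral endosperm replicate 1 and 535 on replicate 2 (difference 3.33, SE 0.76, adjusted p = 0.0042). AT2G28490 read 2651 and 2512 in the embryo and 101 and 589 in the peripheral endosperm (difference 3.18, adjusted p = 0.00105). AT2G18540 read 17204 and 18918 in the embryo against 887 and 6103 in the endosperm (difference 2.93, adjusted p = 0.00969). In all 3 both embryo arrays were higher than both endosperm arrays, and replicate 2 of the endosperm was several times above replicate 1. Of the patterning and cuticle genes higher in the embryo, STOMAGEN, SPCH, CR4 and GSO1 also read higher on replicate 2 than on replicate 1, and YAB3, YAB5 and AT5G01075 read lower. Over all probe sets higher in the embryo, replicate 2 was nearer to the embryo than replicate 1 in 66.1%. The fourth gene, AT4G36700, read 18324 and 19327 in the embryo and 37323 and 33639.7 in the peripheral endosperm, and was not called (difference -0.91, 95% interval -1.76 to -0.06, adjusted p = 0.115). With median scaling AT4G36700 was called higher in the peripheral endosperm. Without peripheral endosperm replicate 1 the list had 1 gene called on the embryo side, and with the 4 arrays fitted alone also 1.

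Genes of oil bodies and oil synthesis were not called in either direction, 0 of 3 and 0 of 2. OLEO3, an oleosin that coats oil bodies, read 36004 and 34656 in the embryo and 38073 and 37532 in the peripheral endosperm (difference -0.10, 95% interval -1.02 to 0.82, adjusted p = 0.901). FaTA, a thioesterase that releases fatty acids from the plastid's synthase, read 5781 and 5326 in the embryo against 7397 and 5132 in the endosperm (difference -0.15, 95% interval -0.76 to 0.46). FATB, the thioesterase that prefers saturated chains, read 969 and 709.9 in the embryo against 1305 and 1414 in the endosperm (difference -0.69, adjusted p = 0.114). Of 2 maturation regulators tested, BZIP53, a bZIP factor that activates seed maturation genes, was higher in the peripheral endosperm, with 1073 and 1445 in the embryo and 3413 and 2777 there (difference -1.28, adjusted p = 0.00425). That call was lost without embryo replicate 1. EEL, a bZIP factor that acts on a late embryogenesis gene, was not called, with 12501 and 12914 in the embryo against 19968 and 9594 in the endosperm (difference -0.12).

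Late embryogenesis abundant proteins, which protect cells during drying, were higher in the embryo for 6 of 11 tested genes and higher in the peripheral endosperm for 1, with a median difference of 1.37. AT5G44310 had the largest difference, with 13032 and 13308 on the embryo arrays and 127 and 187 on the endosperm arrays (difference 6.14, SE 0.71, adjusted p = 8.99e-06). AtLEA4-1 read 2636 and 2343 in the embryo against 76.9 and 169 in the endosperm (difference 4.09, adjusted p = 7.28e-05). The gene listed as LEA read 382 and 345 in the embryo against 4.71 and 5.49 in the endosperm (difference 3.41, adjusted p = 1.11e-04). All 3 were dim on both endosperm arrays next to the embryo arrays. The member higher in the peripheral endosperm was COR47, a dehydrin, with 819 and 918 in the embryo and 2166 and 3732 in the endosperm (difference -1.68, adjusted p = 0.0124). LEA4-5 was not called, with a difference of -0.09 (95% interval -0.97 to 0.79). Without embryo replicate 2, 3 genes were called on the embryo side. COR47 lost its call without either embryo array and without peripheral endosperm replicate 2.

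Transporters showed the reverse. Of 7 tested genes for sugar transport and sucrose cleavage, 3 were higher in the peripheral endosperm and 0 on the embryo side, and the count of 3 was the same under each of those alternatives. SWEET proteins let sugars leave cells down their gradient. SWEET11 read 158 and 281 in the embryo and 12519.5 and 10598 in the peripheral endosperm (difference -5.57, SE 0.44, adjusted p = 1.14e-07). SAG29, also named SWEET15, read 34.4 and 19.8 in the embryo against 4803 and 2752 in the endosperm (difference -5.97, SE 0.56, adjusted p = 7.99e-07). SWEET7 read 36.7 and 7.0 in the embryo against 329 and 1316 in the endosperm (difference -3.75, SE 0.58, adjusted p = 1.80e-04). In each of the 3 both endosperm arrays lay above both embryo arrays, by a ratio of means of 52.6 for SWEET11 and 139.6 for SAG29. SWEET1, SWEET2, SWEET8 and SWEET10 were not called and were dim on all 4 arrays.

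Transporters of nitrate, peptides and hormones were higher in the peripheral endosperm for 3 of 6 tested genes, and higher in the embryo for 0. AT3G25260, a member of the NPF family, had the largest difference: it read 35.1 and 37 on the embryo arrays and 3189 and 4653 on the endosperm arrays (difference -5.84, SE 0.33, adjusted p = 3.65e-09). GTR1, which imports glucosinolates into cells, read 252 and 184 in the embryo against 1093 and 1148 in the endosperm (difference -2.22, adjusted p = 0.00196). AT1G27040, also of that family, read 56.5 and 89.6 in the embryo against 209 and 291 in the endosperm (difference -1.43, adjusted p = 0.0112). The call of AT1G27040 was lost with the 4 arrays alone and without embryo replicate 1. GTR2, the close relative of GTR1, was dim on all 4 arrays and not called.

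Vacuolar processing enzymes are cysteine proteases that cut storage proteins and take part in developmental cell death. The list of these enzymes and of cell death proteases had 5 tested genes, the 4 vacuolar processing enzymes and AT4G04460. Of the 5, 4 were higher in the peripheral endosperm and 0 on the embryo side, with a median difference of -4.46, and the count was 4 under each of those alternatives. ALPHA-VPE read 134 and 72.7 in the embryo and 6137 and 8766 in the peripheral endosperm (difference -5.81, SE 0.42, adjusted p = 4.57e-08). DELTA-VPE, known from inner seed coat layers and counted below among the seed coat markers, read 13.5 and 42.7 in the embryo against 1178 and 1320.4 in the endosperm (difference -4.46, SE 0.38, adjusted p = 2.74e-07). GAMMA-VPE, the vegetative form, read 1075 and 1234 in the embryo against 4614 and 4605 in the endosperm (difference -1.97, SE 0.28, adjusted p = 7.28e-05). The endosperm arrays were higher in all 3, and the smallest difference was that of GAMMA-VPE. BETA-VPE, the form that processes storage proteins in embryos, was not called, with 3625 and 3007 in the embryo and 1928 and 4440.2 in the peripheral endosperm (difference 0.17, 95% interval -0.54 to 0.88). Among the 4 vacuolar processing enzymes the calls were thus 3. AT4G04460 read 919 and 1695 in the embryo against 36414 and 28704 in the endosperm (difference -4.66, SE 0.30, adjusted p = 1.39e-08).

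Other proteases had members on both sides. Of 14 serine carboxypeptidase-like genes tested, scpl25, scpl46 and scpl29 were higher in the embryo, and scpl48 and scpl20 were higher in the peripheral endosperm. Those shares were 21.4% and 14.3%, beside 12.9% and 9.38% of all tested probe sets. The gene scpl48 read 484 and 651 on the embryo arrays and 27012 and 24975 on the endosperm arrays (difference -5.45, SE 0.36, adjusted p = 1.44e-08). The gene scpl25 read 2266 and 2623 in the embryo against 147 and 98.6 in the endosperm (difference 4.01, SE 0.52, adjusted p = 2.98e-05). These members thus lay at opposite ends, with no overlap of the groups in either. Among 7 subtilases tested, serine proteases that cut extracellular proteins and peptide precursors, SBT1.3 was higher in the embryo, with 3048 and 3064 against 216 and 1.98 (difference 5.07, adjusted p = 8.01e-05). SBTI1.1 was higher in the peripheral endosperm, with 259 and 352 in the embryo against 18195 and 13609.5 (difference -5.56, adjusted p = 3.64e-07). The other 5 were not called, so each side held 14.3% of the subtilases, near the background of all probe sets. The call of scpl29 was lost with the 4 arrays alone and without embryo replicate 2 or peripheral endosperm replicate 1.

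Autophagy genes, whose products carry cytoplasm to the vacuole, were higher in the peripheral endosperm for 5 of 11 tested and in the embryo for 1. The ATG8 proteins are ubiquitin-like and bind the autophagosome membrane. ATG8B read 29.6 and 63.8 in the embryo and 529 and 609.6 in the peripheral endosperm (difference -2.97, adjusted p = 2.90e-05). APG8H read 472 and 671 in the embryo against 4416 and 1543 in the endosperm (difference -2.15, adjusted p = 0.00107). ATG8C read 982 and 1138 in the embryo against 3677 and 3284 in the endosperm (difference -1.69, adjusted p = 4.13e-04). All endosperm arrays were above the embryo arrays in these genes. ATG8E was higher in the embryo, with 140.2 and 383 against 69.8 and 58.3 (difference 1.48, adjusted p = 0.0473), and lost that call with the 4 arrays fitted alone, with median scaling or quantile normalization, with no filter, with 100 added, with the replicate block, and without embryo replicate 2 or either peripheral endosperm array. ATG8F, ATG8D and ATG8G were not called.

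Enzymes that loosen or cut cell walls divided by gene. Of 19 cellulases, expansins and related genes tested, 8 were higher in the peripheral endosperm and 2 on the embryo side, with a median difference of -0.92. GH9C1, a cellulase of glycoside hydrolase family 9, read 111 and 218 on the embryo arrays and 14825 and 12274 on the endosperm arrays (difference -6.16, SE 0.40, adjusted p = 1.39e-08). GH9B8, of the same family, read 34.4 and 13.7 in the embryo against 3692 and 4670.2 in the endosperm (difference -6.25, SE 0.45, adjusted p = 4.57e-08). EXLA1, an expansin-like protein, read 92.5 and 77.7 in the embryo against 1841 and 2894 in the endosperm (difference -4.32, SE 0.47, adjusted p = 4.97e-06). In these 3 genes every endosperm array was at least several times as bright as every embryo array. EXPA15, an alpha-expansin, was higher in the embryo, with 2179 and 2594 against 56.2 and 33.1 (difference 4.99, SE 0.53, adjusted p = 3.90e-06). The beta-expansin EXPB3 was also higher there, with 449.7 and 407 against 44.7 and 137 (difference 2.02, adjusted p = 0.0105). With 1 added to the intensities in place of 32, 5 genes were called higher in the endosperm in place of 8, and EXPB3 lost its call with the 4 arrays alone, without either embryo array and without peripheral endosperm replicate 1.

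Genes that build wall polysaccharides were higher in the embryo for 5 of 24 tested and in the peripheral endosperm for 1. The 5 were TBL36, TBL37, TBL38, TBL39 and TBL18 of the trichome birefringence-like family, several members of which acetylate wall polysaccharides. TBL36 read 327 and 405 in the embryo and 54.2 and 3.69 in the peripheral endosperm (difference 2.84, adjusted p = 8.33e-04). CSLC04, which makes the glucan backbone of xyloglucan, read 17.6 and 5.42 in the embryo against 243 and 339 in the endosperm (difference -2.89, SE 0.56, adjusted p = 0.00121). It was dim in the embryo and higher on both endosperm arrays. With 1 added to the intensities 3 genes were called on the embryo side, without either embryo array 2, and without peripheral endosperm replicate 1 3.

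Small secreted peptides are coded by genes of the defensin, CLE and RALF families among others. Of 11 tested, 4 were higher in the embryo and 2 in the peripheral endosperm. PDF2.1, a plant defensin, read 98.9 and 216 on the embryo arrays and 12169 and 18608 on the endosperm arrays (difference -6.39, SE 0.38, adjusted p = 6.40e-09). LCR69, a related cysteine-rich peptide, read 2978 and 3237 in the embryo against 87973 and 66082 in the endosperm (difference -4.60, SE 0.21, adjusted p = 5.60e-10). Their ratios of means were 97.8 and 24.8 in favour of the peripheral endosperm. LCR68, of the same family, was higher in the embryo, with 878 and 998 against 377 and 329 (difference 1.33, adjusted p = 0.0174). CLE27, a signalling peptide, read 549 and 296 in the embryo and 2.25 and 20.1 in the peripheral endosperm (difference 3.37, adjusted p = 0.00107). RALFL22, a peptide of the rapid alkalinization factor family, read 249.6 and 345 in the embryo against 17.5 and 25.6 in the endosperm (difference 2.61, adjusted p = 4.60e-04). LCR68 lost its call with the 4 arrays alone, with median scaling and without either embryo array. The fourth peptide higher in the embryo was STOMAGEN.

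Among 14 bZIP factors tested, 4 were higher in the peripheral endosperm and 2 on the embryo side. bZIP44, which regulates a mannanase during germination, read 206 and 317 in the embryo and 6594 and 4752 in the peripheral endosperm (difference -4.29, SE 0.32, adjusted p = 5.40e-08). BZIP34 and BZIP61, a closely related pair, were higher in the embryo: BZIP61 read 454 and 513 in the embryo against 30 and 76.4 in the endosperm (difference 2.65, adjusted p = 0.0027). BZIP34 read 204 and 271 in the embryo against 13.2 and 14.1 in the endosperm (difference 2.55, adjusted p = 6.61e-04). None of these 3 genes had overlapping groups. The smaller endosperm calls of BZIP28 (adjusted p = 0.0464) and AT4G38900 (adjusted p = 0.0485) were lost with the 4 arrays fitted alone, no filter, no intensity trend or 1 added, and without either embryo array or peripheral endosperm replicate 1.

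Of 9 MADS-box genes tested, AGL18 and AGL87 were higher in the peripheral endosperm and AGL26 in the embryo. AGL18, a repressor of flowering, read 105 and 67.5 on the embryo arrays and 1322 and 2099.9 on the endosperm arrays (difference -3.86, SE 0.32, adjusted p = 1.96e-07). AGL26 read 660.4 and 764 in the embryo against 60 and 215 in the endosperm (difference 2.30, adjusted p = 0.00422). Of 7 auxin genes tested, 3 were higher in the embryo: the transcriptional repressor gene IAA30, GH3.3, which conjugates auxin to amino acids, and YUC6, which makes auxin. GH3.3 read 272 and 328 in the embryo and 20.3 and 51.2 in the peripheral endosperm (difference 2.33, adjusted p = 0.0046), with no overlap. Left-out embryo arrays cut the auxin count to 1 (without replicate 1) and 0 (without replicate 2), and it was 1 without peripheral endosperm replicate 1 and 5 without replicate 2. DME, the demethylase that acts before fertilisation in the central cell, read 859 and 728 in the embryo against 2667 and 1863 in the endosperm (difference -1.46, adjusted p = 0.0313). The 2 other probe sets of DME were not called (differences -1.03 and -0.16), and this one lost its call with no intensity trend, with 1 added, without either embryo array and without peripheral endosperm replicate 1. AGL26 lost its call without peripheral endosperm replicate 1.

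Plastid genes differed by product. Of 69 plastid-encoded genes tested, 14 were higher in the embryo and 1 in the peripheral endosperm, with a median difference of 0.18. All 4 genes of the plastid's own RNA polymerase were higher in the embryo, with differences from 1.56 (rpoA) to 2.02 (rpoB). The gene rpoB read 9252 and 7728 on the embryo arrays and 1906 and 2232 on the endosperm arrays (difference 2.02, SE 0.26, adjusted p = 3.20e-05). Ribosomal protein genes were higher in the embryo for 4 of 7 of the large and 3 of 8 of the small subunit; rpl16 read 17742 and 17356 in the embryo against 4867 and 8551 in the endosperm (difference 1.44, adjusted p = 8.06e-04). Of 10 genes of the NADH dehydrogenase-like complex, 3 were higher in the embryo, among them ndhH (difference 1.65). Photosystem I had 0 calls in 5 genes, the cytochrome b6f complex 0 in 6, and ATP synthase 0 in 6. Among 15 photosystem II genes, psbA, which codes for the D1 protein of its core, was higher in the peripheral endosperm, with 16577 and 17525 in the embryo and 45963 and 33364 in the endosperm (difference -1.20, adjusted p = 4.15e-04). The call of psbA was lost with quantile normalization and without peripheral endosperm replicate 1.

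**Figure D3:**
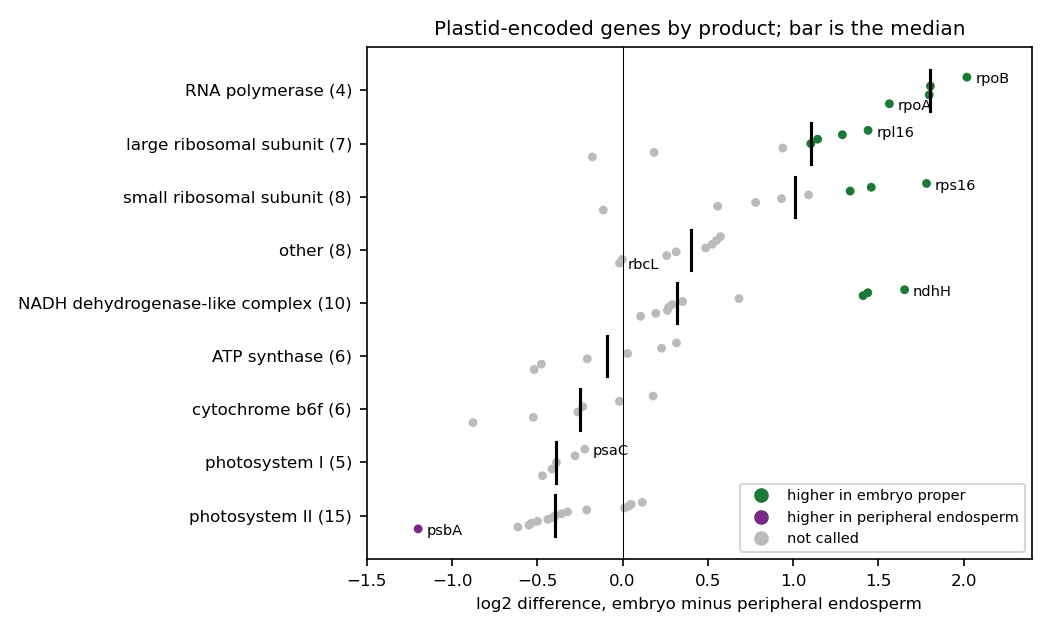
The log2 difference (embryo minus peripheral endosperm) of each plastid-encoded gene tested, by product, with the number of genes in brackets and a bar at the median. The 4 RNA polymerase genes lie between 1.56 and 2.02, the 5 photosystem I genes lie between -0.47 and -0.22, and psbA has the lowest value, -1.20.

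The large subunit of Rubisco, rbcL, was even, with 32141 and 28025 in the embryo and 34048 and 27128 in the peripheral endosperm (difference -0.02, 95% interval -0.48 to 0.44). The ATP synthase gene atpE was even too (difference 0.03), as was TPI, triosephosphate isomerase (difference -0.15). Of 9 nuclear photosynthesis genes, RCA, the activase of Rubisco, was higher in the embryo at an adjusted p of 0.0497, and lost that call under most alternatives. LHCB4.3, an antenna protein, was higher in the peripheral endosperm (difference -1.13, adjusted p = 0.0279), a call lost with no intensity trend in the prior and when any single array of either group was left out. LHCB4.1 read 11819.6 and 12564 in the embryo against 11939.6 and 11771 in the endosperm and was not called. Each side held 11.1% of these 9 nuclear genes, near the background of all probe sets. Of 14 mitochondrial genes, cox1, a subunit of cytochrome oxidase, was higher in the peripheral endosperm, with 5360.4 and 4916 in the embryo and 16512 and 11757 in the endosperm (difference -1.43, adjusted p = 1.73e-04), and 0 were higher in the embryo.

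Genes of DNA replication and the cell cycle were higher in the embryo for 2 of 9 tested. PRL, a subunit of the MCM helicase that opens DNA for replication, read 1914 and 1882 in the embryo and 398 and 457 in the peripheral endosperm (difference 2.07, SE 0.42, adjusted p = 0.00195). HTB2, a histone H2B, read 6523 and 4558 in the embryo against 1682 and 1541 in the endosperm (difference 1.74, SE 0.30, adjusted p = 5.31e-04). The embryo arrays were clearly higher in both. AUR1, an Aurora kinase, read 1132 and 1102 in the embryo against 1158 and 1238 in the endosperm and was not called (difference -0.10, 95% interval -1.39 to 1.20). Of 28 genes of microtubules and the division plane, 7 were higher in the embryo and 3 in the peripheral endosperm. TUB5, a beta-tubulin, read 667 and 578 in the embryo and 5.91 and 32.7 in the endosperm (difference 3.72, adjusted p = 1.63e-04). TUB1, another beta-tubulin, read 119 and 85.4 in the embryo against 606 and 323 in the endosperm (difference -1.84, adjusted p = 0.0374). IQD16, of a family that binds calmodulin and microtubules, was higher in the peripheral endosperm, with 145 and 177 against 2409 and 2172 (difference -3.59, adjusted p = 5.90e-05). IQD26, of the same family, was higher in the embryo, with 1280.2 and 970.3 against 22.9 and 81.6 (difference 3.86, adjusted p = 6.50e-05). With median scaling the split turned round, to 5 on the embryo side and 6 on the endosperm side. With 1 added to the intensities it was 4 and 1, and without either embryo array 3 genes were called on the embryo side. With the 4 arrays fitted alone the endosperm side had 1 call, as it did without embryo replicate 1. TUB1 lost its call with the 4 arrays alone, no filter or 1 added, and without either embryo array or peripheral endosperm replicate 1.

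**Figure D4:**
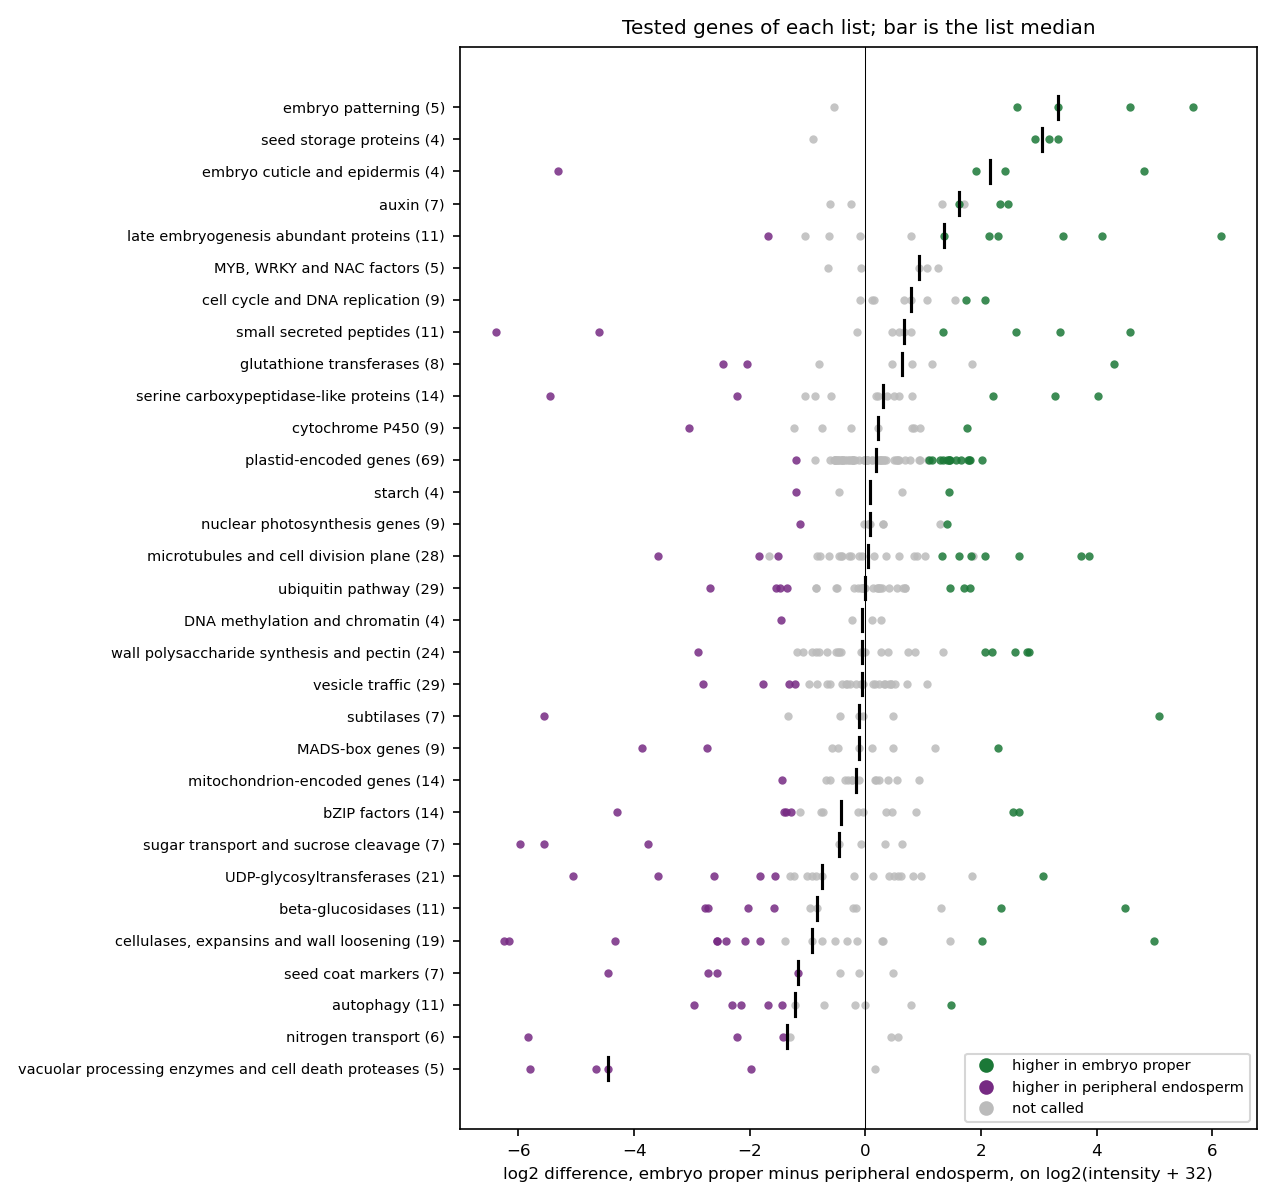
The log2 difference (embryo minus peripheral endosperm) of each tested gene, for lists with at least 4 tested genes (number in brackets; the embryo marker list, whose genes are in other lists, is left out), ordered by the list median, which is drawn as a bar; green and purple points are called. Of the lists drawn, embryo patterning lies farthest to the embryo side at a median of 3.34, and vacuolar processing enzymes with cell death proteases lie farthest to the endosperm side at -4.46.

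Enzymes that attach or remove sugars were called on both sides. Of 21 UDP-glycosyltransferases tested, 5 were higher in the peripheral endosperm and 1 on the embryo side. UGT84B1, which glucosylates auxin, read 9.23 and 56.3 on the embryo arrays and 1362 and 2862 on the endosperm arrays (difference -5.06, SE 0.52, adjusted p = 2.42e-06). UGT84A3, which glucosylates hydroxycinnamic acids, read 15 and 86.5 in the embryo against 649 and 1163 in the endosperm (difference -3.59, SE 0.59, adjusted p = 3.04e-04). UGT78D1, which adds rhamnose to flavonols, was higher in the embryo, with 9868 and 8505 against 989.6 and 1149 (difference 3.07, SE 0.36, adjusted p = 1.15e-05). The embryo arrays of UGT78D1 lay well above the endosperm arrays, and those of the other pair well below. Of 11 beta-glucosidases tested, 4 (BGLU44, BGLU29, BGLU41 and BGLU15) were higher in the peripheral endosperm and 2 (BGLU40 and BGLU25) in the embryo. BGLU44 read 2253 and 2832 in the embryo and 19039.8 and 14889 in the peripheral endosperm (difference -2.72, adjusted p = 4.36e-05). BGLU40 read 781 and 697 in the embryo against 1.93 and 2.73 in the endosperm (difference 4.49, adjusted p = 6.36e-05). Of 8 glutathione transferases, GSTU27 was higher in the embryo (difference 4.31) and GSTU16 and GSTU18 in the peripheral endosperm (differences -2.46 and -2.05). Of 4 starch genes, DPE1, which rearranges glucans, was higher in the embryo (adjusted p = 0.0412) and the branching enzyme gene SBE2.2 in the peripheral endosperm (difference -1.20, adjusted p = 0.00696). DPE1 lost its call with the 4 arrays alone, median scaling, no filter, no intensity trend, 1 added or the replicate block, and without either embryo array or peripheral endosperm replicate 2. SBE2.2 lost its call without embryo replicate 2. Without embryo replicate 2 the endosperm side had 3 UDP-glycosyltransferases and 2 beta-glucosidases, and without peripheral endosperm replicate 2, or with the 4 arrays alone, it had 3 UDP-glycosyltransferases. BGLU41 and BGLU15 lost their calls without embryo replicate 2, BGLU15 also without embryo replicate 1 or peripheral endosperm replicate 2, and BGLU25 with the 4 arrays alone and without peripheral endosperm replicate 1.

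Of 29 ubiquitin pathway genes, 3 were higher in the embryo and 4 in the endosperm, shares near the background of all probe sets. UBC16, a ubiquitin-conjugating enzyme, read 395 and 388 in the embryo and 2221 and 3299 in the peripheral endosperm (difference -2.69, adjusted p = 2.70e-05). Of 29 genes of vesicle traffic, 4 (13.8%) were higher in the peripheral endosperm and 0 on the embryo side. PRA1.B4, a membrane protein that binds Rab proteins, read 325 and 223 in the embryo against 3018 and 1443 in the endosperm (difference -2.81, adjusted p = 6.41e-05). Both of its endosperm arrays were higher. With the 4 arrays fitted alone the list had 1 call on that side. Of 9 cytochrome P450 genes, CYP71B34 was higher in the peripheral endosperm (difference -3.06, adjusted p = 4.15e-04) and CYP71B6 in the embryo (adjusted p = 0.0477). Each side thus held 11.1% of the cytochrome P450 genes, near the background. The embryo side had 0 such calls with the 4 arrays alone, median scaling, quantile normalization, no filter or 1 or 100 added, and without either embryo array or peripheral endosperm replicate 1. Without embryo replicate 2 the ubiquitin list had 0 calls on the embryo side, without embryo replicate 1 it had 1 there and 2 on the endosperm side, and without peripheral endosperm replicate 1 it had 1 on the embryo side. Vesicle traffic had 2 calls without embryo replicate 1 or peripheral endosperm replicate 1 and 1 without embryo replicate 2. Of 5 MYB, WRKY and NAC factors 0 were called.

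The genes with the largest differences mostly have no name in the annotation used here. On the embryo side, AT1G62500 read 7783 and 6722 on the embryo arrays and 84 and 8.42 on the endosperm arrays (difference 6.73, SE 0.84, adjusted p = 2.15e-05). AT4G19380 read 4064 and 4321 in the embryo against 6.70 and 13.2 in the endosperm (difference 6.66, SE 0.65, adjusted p = 1.31e-06). AT4G29020 had the smallest adjusted p of these, with 17064 and 16159 in the embryo and 373 and 385 in the endosperm (difference 5.34, SE 0.31, adjusted p = 4.38e-09). The rest of the 12 were AT3G05600, AT5G01870, AT5G44310, AT3G24250, AT1G09750, YAB3, ATOEP16-2, AT1G10640 and AT1G29270, with differences down to 5.33. ATOEP16-2 codes for a channel of the outer plastid envelope.

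On the endosperm side, AT5G07260 read 5.91 and 1.81 on the embryo arrays and 6429 and 6273 on the endosperm arrays (difference -7.48, SE 0.36, adjusted p = 7.21e-10). AT5G59170 read 68.7 and 107 in the embryo against 19969 and 19946 in the endosperm (difference -7.40, SE 0.49, adjusted p = 1.39e-08). AT1G04380 read 37.6 and 36.3 in the embryo against 10226 and 9400.0 in the endosperm (difference -7.16, SE 0.46, adjusted p = 1.34e-08). The embryo arrays of all 3 were below the array medians. The rest of the 12 were AT3G61930, AT2G38900, AT1G71250, PDF2.1, AT5G11230, GH9B8, GH9C1, AT5G12460 and AT3G19660, with differences from -6.57 to -6.05.

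Some called genes were named for a high intensity in the higher compartment, which is a rule of choice and not a ranking of transcript levels, since probe sets share no scale. On the embryo side AT1G04660, AT4G29410, AT5G15200, rpl16, AT2G18540 and AT1G74470 were chosen so. AT1G04660 read 74439 and 67779 in the embryo and 12193 and 6134 in the peripheral endosperm (difference 3.03, adjusted p = 6.13e-05). AT1G74470, listed as a geranylgeranyl reductase, read 17407 and 19706 in the embryo against 7464 and 11217 in the endosperm (difference 1.01, adjusted p = 0.023), and lost its call with median scaling, with no intensity trend, and without either embryo array or peripheral endosperm replicate 1. AT5G15200 lost its call with median scaling. On the endosperm side the genes chosen so were AT5G38170, LCR69, AT5G38160, AT5G47550, AT1G12080 and AT1G33055. AT5G38170 read 23277 and 24034 in the embryo and 125616 and 92609 in the peripheral endosperm (difference -2.19, adjusted p = 1.09e-04). AT5G47550 read 1112 and 1661 in the embryo against 54642 and 58833 in the endosperm (difference -5.35, adjusted p = 8.68e-09). AT1G12080 read 1115 and 1490.1 in the embryo against 56014 and 39669.5 in the endosperm (difference -5.16, adjusted p = 8.68e-09). In all 3 genes both endosperm arrays were above both embryo arrays.

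The other compartments place these differences. Of the 1905 probe sets higher in the embryo, the embryo had the highest mean of the 6 dissected compartments in 1199 (62.9%). The chalazal endosperm was highest in 284, the chalazal seed coat in 190, the general seed coat in 166 and the micropylar endosperm in 66. Of the 1385 higher in the peripheral endosperm, that compartment was highest in 573 (41.4%), the general seed coat in 242, the chalazal seed coat in 194, the micropylar endosperm in 190 and the chalazal endosperm in 186. These counts describe means of 2 arrays and were not tested. By the choice of probe sets the lower compartment of the comparison cannot be the highest, and the shares over all tested probe sets were not computed. Some named genes higher in the embryo had far higher means in a seed coat. UGT78D1 averaged 43980 ± 12835 (SD, n = 2) in the general seed coat against 9186 ± 964 in the embryo. In the chalazal seed coat TBL38 averaged 13657 ± 4762 and LCR68 13673.5 ± 1972, against 218 ± 11.6 and 938 ± 85.3 in the embryo. YAB3 was high in the embryo alone of the 6 compartments, with means of at most 45.1 elsewhere, and averaged 1016 ± 245 (SD, n = 2) in whole seeds.

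The micropylar endosperm surrounds the root end of the embryo; its samples are so named in title, source and description, but carry the cell type field of the embryo proper. It was nearer to the peripheral endosperm than to the embryo in 990 (71.5%) of the 1385, and the chalazal endosperm in 43.8%. The same held for the chalazal seed coat in 53.5% and the general seed coat in 52.5%. Of the 1905 higher in the embryo, the micropylar endosperm was nearer to the peripheral in 61.1% and the chalazal endosperm in 62.3%. The chalazal seed coat was so in 60.9% and the general seed coat in 65.8%. GH9C1 averaged 2783 ± 566 (SD, n = 2) in the micropylar and 137 ± 79.5 in the chalazal endosperm. SWEET11 averaged 4182 ± 1975 and 30.2 ± 37 there. AT1G50650 averaged 2933 ± 1765 and 77.3 ± 86.7. Of the 3 endosperm regions, the peripheral one had the highest mean in all 3 genes and the chalazal one the lowest. PDF2.1 and AT5G07260 differed from these and did not have their highest mean in the peripheral endosperm. AT5G07260 averaged 12282 ± 1829.8 in the chalazal endosperm, 4380 ± 238 in the micropylar and 6351 ± 111 in the peripheral. PDF2.1 averaged 19006 ± 551 in the micropylar endosperm, 15388.5 ± 4553 in the peripheral and 3283 ± 1039 in the chalazal. Other named genes were also higher in the chalazal than in the peripheral endosperm. AT1G27040 averaged 20445 ± 374 against 250 ± 58.3, UGT84B1 23836.5 ± 2801 against 2112 ± 1061, and SWEET7 4154 ± 997 against 823 ± 697. The same order held for AGL18 and GTR1. Of the 1385, the micropylar mean was above the peripheral one in 380 and the chalazal mean in 294.

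**Figure D5:**
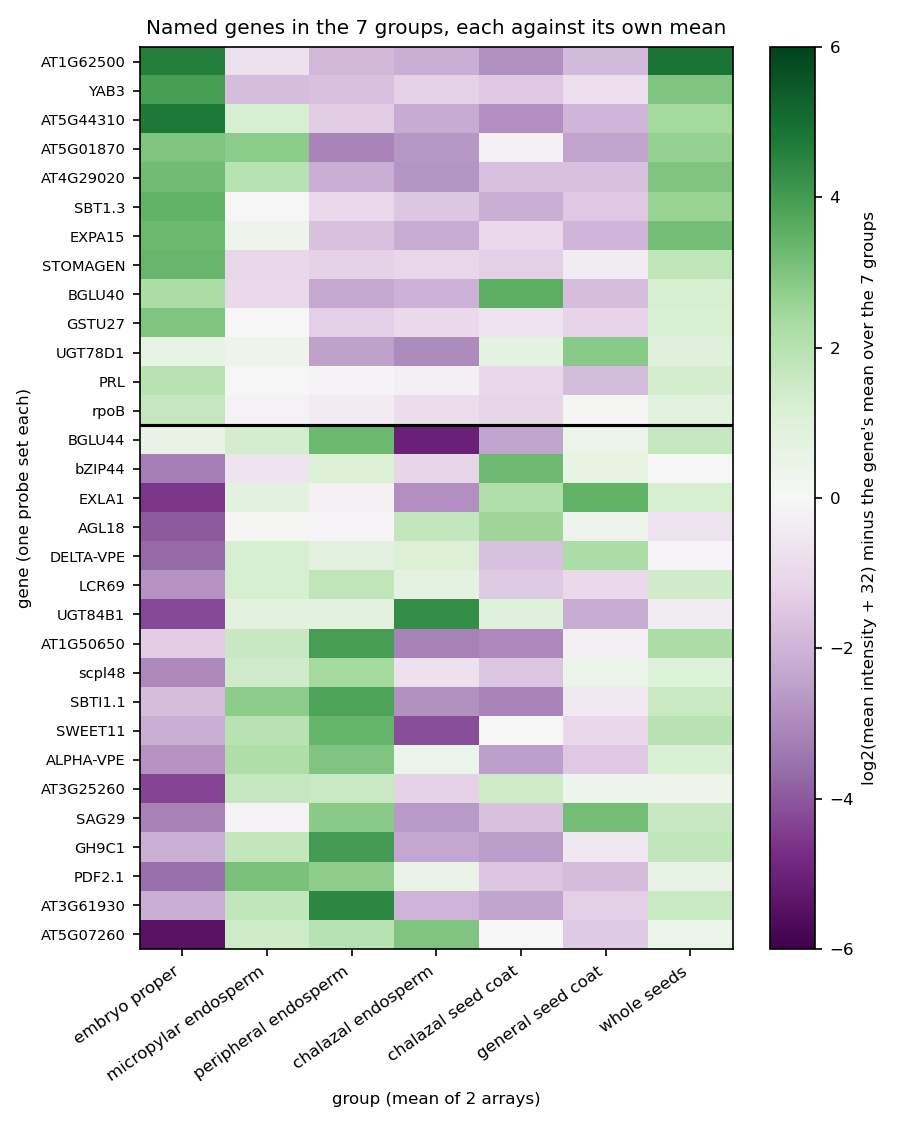
Named genes in the 7 groups, each as log2(mean intensity + 32) of 2 arrays minus the gene's own mean over the groups, green for above and purple for below; the line separates genes higher in the embryo (top) from genes higher in the peripheral endosperm (bottom). YAB3 and STOMAGEN stand out in the embryo, SWEET11 and GH9C1 in the peripheral and micropylar endosperm, and EXLA1, AGL18 and bZIP44 are highest in a seed coat group.

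Seed coat cells lie beside the peripheral endosperm in a section. Of 7 seed coat markers tested, 4 were called on the endosperm side: DELTA-VPE, BAN, DFR and AT2G22900. BAN, the anthocyanidin reductase of seed coat tannins, read 1.38 and 4.90 on the embryo arrays and 191 and 207 on the peripheral endosperm arrays, and averaged 2438 ± 254 (SD, n = 2) in the chalazal and 652 ± 161 in the general seed coat. DFR, dihydroflavonol reductase of the same pathway, read 23 and 25.8 in the embryo against 244 and 371 in the endosperm. Both markers were low but above the embryo in the peripheral endosperm. ARA12, AT3G50990 and AT3G10320 were not called, and the last 2 were dim on all 4 arrays. The summed intensity of the 7 markers was 2662 to 3025 on the embryo arrays, 4875 to 6025 on the peripheral endosperm arrays, 32854 to 39992 in the chalazal seed coat and 50225 to 55417 in the general seed coat. It was 5053 to 5635 in the micropylar endosperm and 2275 to 2466 in the chalazal endosperm. Because 4 of the 7 markers are themselves among the 1385, the higher sum in the peripheral endosperm is no result beyond their calls. The part of seed coat cells in the other calls was not tested. In 389 of the 1385 the general seed coat mean was above that of the peripheral endosperm. EXLA1 and SAG29 were among these, with general seed coat means of 30504 ± 3292 and 4768 ± 1212. DELTA-VPE was another, at 3523 ± 366 against 1249 ± 101 in the peripheral endosperm. So were GAMMA-VPE, at 9043 ± 1786 against 4609 ± 6.5, and ATG8B, at 1220 ± 411 against 569 ± 57.3. By contrast, GH9C1, SWEET11, ALPHA-VPE, AT4G04460, ATG8C and APG8H averaged less in the general seed coat than in the peripheral endosperm. DELTA-VPE was also above its peripheral endosperm mean in the micropylar (1793 ± 183) and chalazal endosperm (1616 ± 31.0). In the chalazal seed coat DELTA-VPE averaged only 210 ± 96.4.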

How the data were processed

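Compartments were captured by laser microdissection from fixed, paraffin-embedded seeds, and 5 to 6 ng of RNA (2 to 5 ng for the micropylar endosperm) was amplified and labelled with biotin, per the labels' protocols. Each deposited value is a linear signal intensity. GCOS is the tool in the submitters' processing notes, without a version. These intensities had been scaled by the authors, since the 2% trimmed mean of every array was 500 as found from the values. Probe-level files were not used here.

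Testing was limited to probe sets above their array's median on both arrays of at least 1 of the 7 groups, which kept 14765 of 22746 (64.9%) after 64 controls were left out. A log2(intensity + 32) value was fitted in limma 3.58.1 (R 4.3.3; lmFit, and eBayes with an intensity trend) with a mean for each of 7 groups over all 14 arrays, giving 7 residual degrees of freedom, with Benjamini-Hochberg adjustment over the 14765. Data with 14765 probe sets were simulated with independent normal noise of the fitted spread. Changes were placed only in probe sets brighter than the median of those tested. Of these, 44% of those changed by 1.5, 78% of those changed by 2 and all changed by 3 or 4 (log2) were called, with 7 false calls. Recovery among dimmer probe sets was not measured. Only 50 probe sets were changed at each size, a far smaller share than the 22.3% called in the data. The adjusted p depends on that share, so these rates need not hold for the real comparison.

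Probe sets were named through the platform annotation of GEO, which can be old, and current symbols came from RefSeq's TAIR10.1 table, from which only names were taken. One gene was given for 13513 probe sets (13436 in that table), several for 503 and none for 8730. For a gene with several probe sets, the one brightest over all arrays stands for it; 97 tested genes had several, and 17 of those had differing calls. Named genes are, in each direction, the 12 largest differences without overlap and the 6 brightest called, the 4 brightest even genes (within 0.2), and up to 4 called members of each list (6 for lists of at least 20 tested genes). The comparison, its members and the 37 gene lists were chosen with earlier results of these data known, and 12 lists were added after the annotation had been seen. The counts of list members under other settings were added after seeing the data. Alternatives were the constant (1 or 100), the filter, the scaling, the arrays fitted, the variance prior, the replicate number as a block, no minimum difference, and each array left out.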

Additional observations from a re-analysis of the deposited data

How the results depend on the processing

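Of the 151 called genes named by the rule, 101 kept their call under every alternative run, 114 under every alternative with both groups complete, and 0 reversed. Fitted on the 4 arrays alone, 1207 probe sets were higher in the embryo in place of 1905. With single arrays left out, between 824 and 2462 probe sets were higher in the embryo and between 844 and 1584 in the peripheral endosperm. The embryo count was 824 without either embryo array, 1225 without peripheral endosperm replicate 1 and 2462 without replicate 2; the endosperm count was 847 without embryo replicate 1 and 844 without embryo replicate 2. The lone array is then assumed to vary like the other groups. Fewer arrays entered these fits, and no other cause was tested. The other settings gave 1409 (median scaling) to 2032 (100 added) for the embryo and 998 (4 arrays alone) to 1916 (median scaling) for the peripheral endosperm. Replicate numbers 1 and 2 are shared by both groups, but no label says that they pair samples. Over the tested probe sets, replicate 1 minus replicate 2 of the embryo and that of the peripheral endosperm correlated at -0.0019. With the replicate block, 1818 probe sets were higher in the embryo and 1330 in the peripheral endosperm. Array signal limits dim genes, for which the constant of 32 sets the size of a difference, and 35.1% of probe sets were too dim to test.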
